A study of Mus musculus with 6 samples.

Results

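Interferon-stimulated genes are the genes that cells switch on when interferon binds its receptors, and 56 of them were followed in the aorta of young and aged mice. They were chosen by gene symbol, as genes induced by type I or type II interferon, and all 56 were found among the 55335 genes counted. The libraries came from 3 young wild-type C57BL/6 mice aged 6 weeks and 3 aged mice of the same strain at 6 months (the labels write c57b6l), with 1 library per mouse. No treatment or altered allele is named for any of the 6 mice, and per the study's methods all were male. Per the study's methods, the tissue was the vessel after the fat around it had been dissected away. Each value averages over all cells in the sample, and markers of adipocytes and cardiac muscle were still counted, as given below. A mouse of 6 months is a mature adult, which limits these animals as a model of old age.

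Type I interferons act through the receptor pair IFNAR1 and IFNAR2 and the kinases JAK1 and TYK2 on a complex that holds STAT2 and IRF9. This complex binds the interferon-stimulated response element (ISRE), while the response to type II interferon uses the gamma-activated site (GAS). The induced proteins sense, cut or trap viral nucleic acid, block translation or membrane fusion, and attack the vacuoles of intracellular microbes. Vessel wall cells and tissue macrophages both carry these receptors.

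Promoter stretches of Ifit1, Isg15, Trim30a and Igtp are shown for their ISRE-like letters, 1 gene for each of 4 roles described below, and the pair Ifit3 and Ifit3b for how alike they are. Each is read 5′ to 3′ along the gene from RefSeq promoters of GRCm38.p6, and capitals mark the ISRE-like motif, GAAA followed by any 2 bases and GAAA, searched on both strands (on the other strand it reads TTTC, any 2 bases, TTTC).
Ifit1, chr19:34640770-34640828, plus strand: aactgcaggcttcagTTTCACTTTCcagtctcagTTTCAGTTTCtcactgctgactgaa
Ifit3, chr19:34583358-34583431, plus strand: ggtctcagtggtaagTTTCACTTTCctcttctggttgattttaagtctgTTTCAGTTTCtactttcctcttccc
Ifit3b, chr19:34607754-34607827, plus strand: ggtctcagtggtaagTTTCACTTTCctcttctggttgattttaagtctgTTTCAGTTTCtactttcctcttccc
Isg15, chr4:156200860-156200911, minus strand: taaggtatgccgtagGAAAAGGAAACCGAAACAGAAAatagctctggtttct
Trim30a, chr7:104465205-104465244, minus strand: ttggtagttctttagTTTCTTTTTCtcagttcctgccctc
Igtp, chr11:58199507-58199546, plus strand: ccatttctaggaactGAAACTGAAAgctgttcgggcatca
The promoter of Irf1, a transcription factor gene of the type II response, is shown for its GAS-like letters, TTC followed by any 3 bases and GAA, in capitals, a motif that reads the same on both strands.
Irf1, chr11:53769909-53769947, plus strand: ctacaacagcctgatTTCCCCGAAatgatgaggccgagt

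The windows of Ifit3 and Ifit3b were the same in 74 of 74 bases. In Isg15, 3 matches overlap each other in 1 run, while in Ifitm3, not printed, both matches lay after the gene start. The promoter table, which runs from 250 bases before to 50 after the gene start, held 41 of the 56 genes. The ISRE-like motif was present in the promoters of 23 of these 41 genes (56.1%), against 1079 of all 27025 genes in the table (3.99%). A total of 34 matches were found, 28 of which began before the gene start, and 9 genes had at least 2 in the same promoter. Trim30a, with 2 promoters in the table, had 1 match in each. By role, all 4 of the GBP promoters, 4 of 5 IRG promoters, 3 of 4 IFIT promoters and 3 of 3 sensor promoters held a match, against 1 of 4 transcription factor promoters (that of Stat2) and 0 of 5 in the group of other induced genes. The GAS-like motif was present for 14 of 41 genes (34.1%), against 9.55% of all genes in the table, and in 2 promoters a GAS-like and an ISRE-like match overlapped. The letters say only what these windows hold, and no binding was measured.

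**Figure D1:**
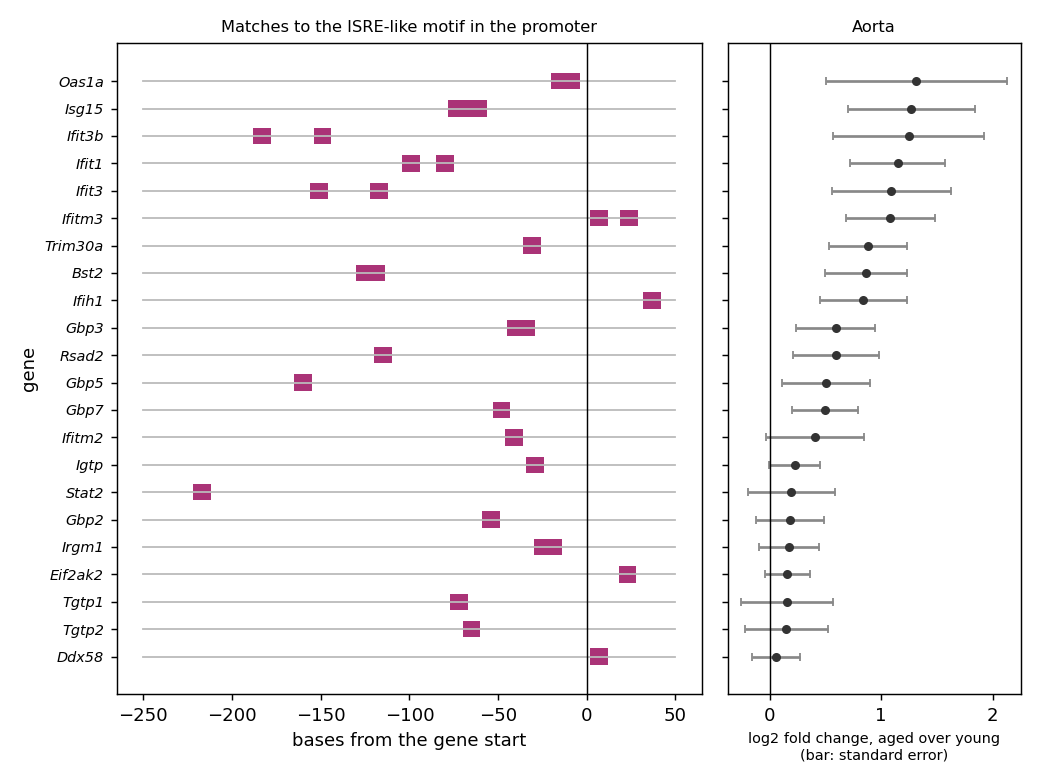
Left, ISRE-like matches (boxes) by distance in bases from the gene start (x axis) in the 300-base promoters of the 22 tested genes that hold one, with 1 gene per row (for Trim30a, the promoter printed above). Right, the log2 fold change of aged over young aorta of the same genes with its standard error, from 0.05 for Ddx58 to 1.32 for Oas1a.

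The 6 libraries held 31049632 to 45832185 counts. Smooth muscle genes were abundant in every library, with a summed level of 6 markers of 27960 to 40140 CPM (CPM, counts divided by the TMM-adjusted library size and put on 1 common scale). Mitochondrial transcripts took 14.9 to 21.2% of counts in young and 23.1 to 30.4% in aged libraries. Xist, the RNA that silences an X chromosome in females, was at 305.6 CPM in young replicate 1 and 0.204 to 0.636 CPM elsewhere, while the Y-linked Ddx3y was at 1.09 CPM there and 44.8 to 65.6 CPM in the other libraries. Young replicate 1 thus goes against the stated sex.

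By their median, interferon-stimulated genes lay at slightly higher levels in aged than in young aorta, but no single one passed the test. The rise was seen in aged replicates 1 and 3 and not in aged replicate 2, as given below. After a filter on low counts 55 of the 56 were tested, together with 16612 genes in all. With edgeR's quasi-likelihood test, 0 of 55 had an adjusted p below 0.05, as did 0 of all 16612 genes (0%). The lowest adjusted p was 0.421 among the 55 and 0.189 among all genes. At an unadjusted p below 0.05, 7 of 55 were higher in aged aorta and 0 lower (Ifit1, Dhx58, Oasl2, Ifitm3, Trim30a, Sp100 and Gbp6), against 5.56% of all genes higher and 4.82% lower. DESeq2 also called 0 of the 55, while calling 338 of all genes (2.03%). At an unadjusted p below 0.05 it had 16 of the 55, beside 6.9% of all genes that were higher in aged aorta.

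The log2 fold change of aged over young was above 0 in 53 of 55, against 52.1% of all genes, with a median of 0.41 against 0.02. On the log2(FPKM + 1) scale, which divides by all reads of a library, the sign flipped in many of them and 34 of 55 were above 0. The median of all genes there was -0.12 and that of the 55 was 0.07. Of the 55, 53 lay above the median of all genes, against 52 of 55 on TMM-scaled counts. The size of these medians also depended on the pseudocount. On log2(FPKM + 0.1) they were -0.19 and 0.16, with 37 of 55 above 0 and 52 above the median of all genes. The direction of a gene is given below relative to the TMM scaling. Since the libraries are bulk, fewer cells of a type and less RNA per cell cannot be told apart.

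Groups overlapped for most of these genes. Every aged library lay above every young library in 5 of 55 (Ifit1, Usp18, Dhx58, Epsti1 and Gbp6), a share of 9.09% beside a background of 7.74%. None of the 55 had every aged library below every young library, beside a background of 8.78%. The share above is near the background. Without young replicate 1 the count was 15 of 55, beside 15.8% of all genes, and the log2 fold change was above 0 in 55 of 55, with a median of 0.64. Among the named genes, leaving it out moved the log2 fold change by over 1.5 times for Oas1a (1.32 to 2.03), Ifitm2 (0.41 to 0.64), Gbp2 (0.18 to 0.41), Eif2ak2 (0.16 to 0.022) and Stat2 (0.19 to 0.069).

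**Figure D2:**
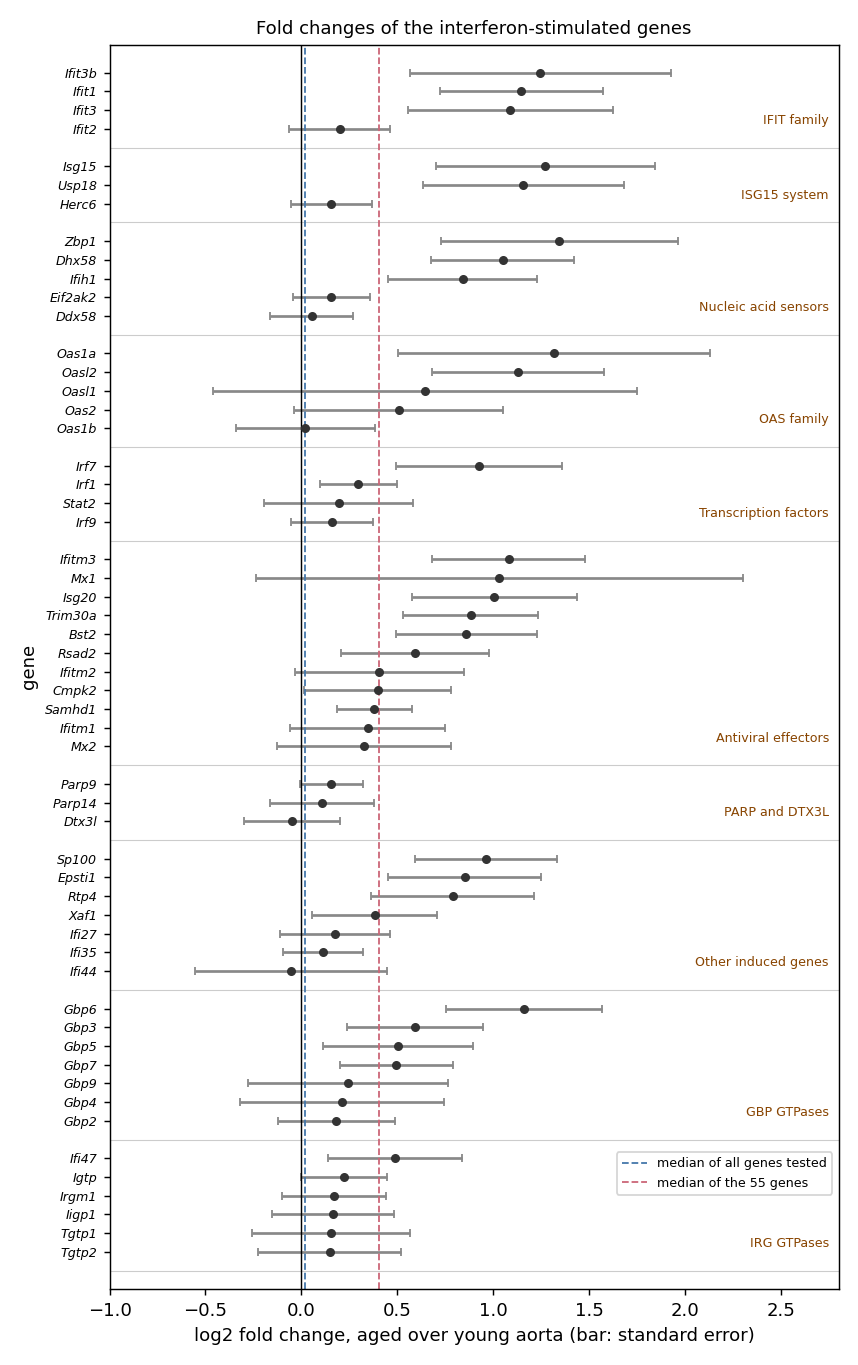
Log2 fold change of aged over young aorta for each of the 55 genes tested, grouped by role, on the x axis, with bars for the standard error of the edgeR fit (3 mice per group). The dashed lines mark the median of all genes tested (0.02) and of the 55 genes (0.41). All but Dtx3l and Ifi44 lie above 0, and none passed the adjusted threshold.

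Aged replicates 1 and 3 stood above the young libraries, while aged replicate 2 did not. Of the 55 genes, 25 had their highest level in aged replicate 3 and 24 in aged replicate 1, against 5 in young replicate 1, 1 in aged replicate 2 and 0 in the other young libraries. Over all genes tested, 15.1% were highest in aged replicate 3, 21.5% in aged replicate 1 and 17.7% in aged replicate 2. In young replicates 1, 2 and 3 the shares were 13.1%, 13.2% and 19.3%. Relative to its mean over the 6 libraries, the median gene of the 55 was at -0.01, -0.19 and -0.25 on the log2 scale in young replicates 1, 2 and 3. It was at 0.38, -0.27 and 0.40 in aged replicates 1, 2 and 3. By this median, aged replicate 2 lay with the young libraries, just below the lowest of them. It was below every young library in 16 of the 55 genes (29.1%), near the 28.4% of all genes tested.

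With aged replicate 2 set aside, both other aged libraries lay above every young library in 35 of 55 genes, beside 17.5% of all genes. In these 35, aged replicate 2 was below every young library for 13, within the young range for 17 and above it for 5. Of the 2900 such genes among all genes tested, it was below for 524, within for 1090 and above for 1286. The pattern covered all 4 IFIT genes, all 3 of the PARP and DTX3L genes, 4 of 5 sensors, 3 of 4 transcription factors, 5 of 7 GBP genes, 2 of 3 genes of the ISG15 system, 6 of 11 antiviral effectors, 3 of 6 IRG genes, 3 of 7 other induced genes and 2 of 5 OAS genes. It was absent from, among others, Oas1a, Eif2ak2, Stat2, Ifi27 and the antiviral genes Mx1, Mx2, Rsad2 and Cmpk2. Refitted without this library, 1 of 55 genes (Ifit3b) was called, with an adjusted p of 0.0454, beside 0.642% of all genes. At an unadjusted p below 0.05, 21 were then higher in aged aorta, beside 8.19% of all genes, and the median of the 55 was 0.60. This library was set aside after its values were seen, so these counts describe the other 5 libraries.

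**Figure D3:**
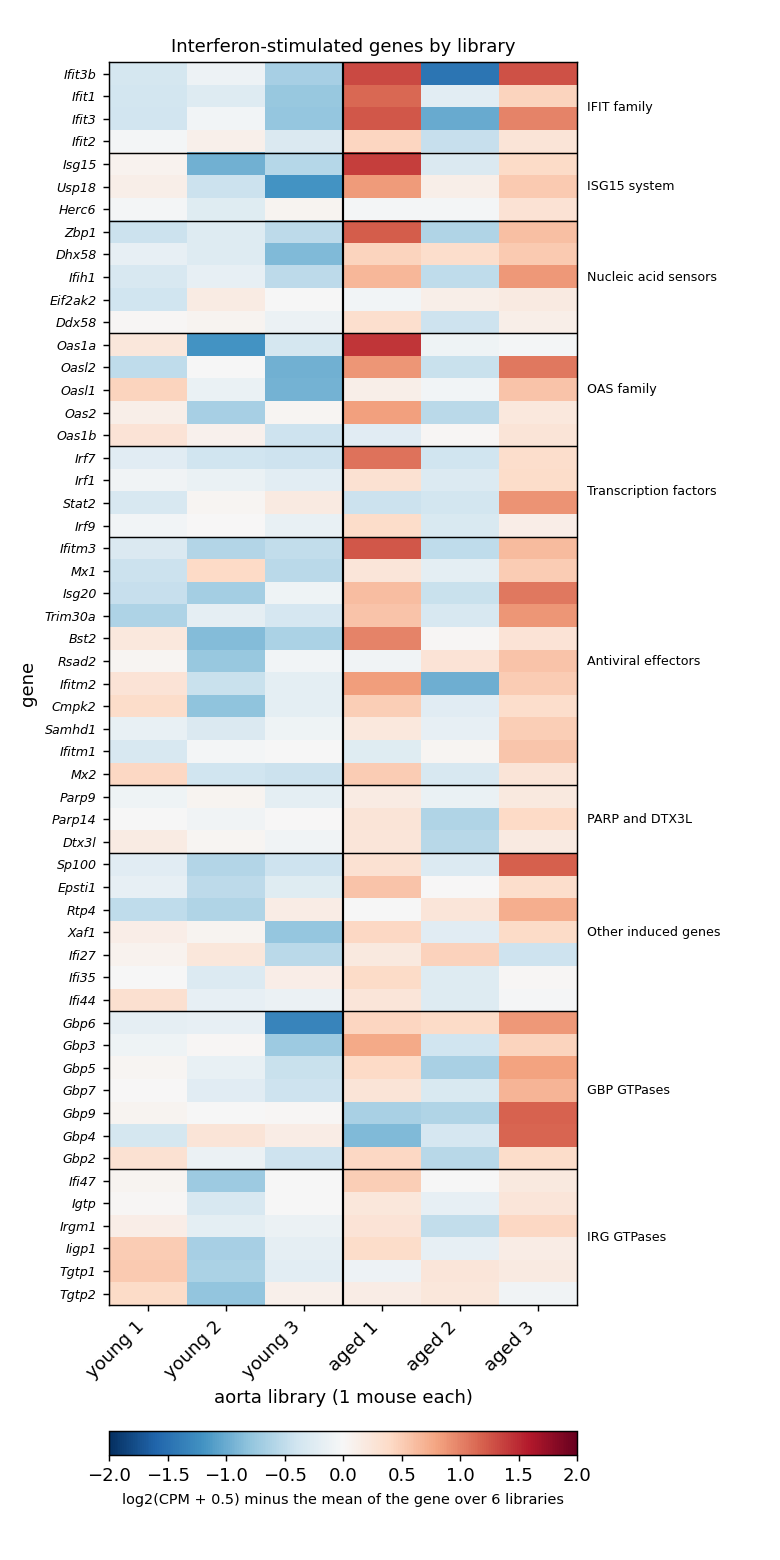
Level of each of the 55 genes tested in each library, as log2(CPM + 0.5) minus the gene's mean over the 6 libraries, with genes in rows by role and libraries in columns. Aged replicates 1 and 3 are above the mean for most genes, with medians of 0.38 and 0.40, and aged replicate 2 is below it, with a median of -0.27.

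The summed macrophage and fibroblast markers were highest in the same libraries, though not every fibroblast marker was. The 10 macrophage markers summed to 83.8, 59.1 and 62.0 CPM in young replicates 1, 2 and 3 and to 279.7, 91.5 and 197 CPM in aged replicates 1, 2 and 3. All 10 of 10 had a log2 fold change above 0, beside 52.1% of all genes, with a median of 1.41. Of the 10, 9 were higher at an unadjusted edgeR p below 0.05, beside 5.56% of all genes, and 0 were called. The 6 fibroblast markers summed to 4224 to 5442 CPM in young libraries and to 9041, 2886 and 6137 CPM in aged replicates 1, 2 and 3. Of these 6, 5 had a log2 fold change above 0, and Col3a1 was at -0.28. Col3a1 was at 1806 CPM in aged replicate 3, below the young 2337 to 2718 CPM. Col1a1 there was at 1282 CPM, within the young 907 to 1559 CPM. The 6 endothelial markers summed to 395 to 482 CPM in young libraries and to 366, 330 and 1584 CPM in the aged ones. The 6 smooth muscle markers summed to 32232 to 40140 CPM in young libraries and to 33326, 29090 and 27960 CPM in the aged ones. Of these 6, 0 had a log2 fold change above 0, beside 52.1% of all genes, with a median of -0.32. At an unadjusted edgeR p below 0.05, 3 were lower, beside 4.82% of all genes, and 0 were called. The summed adipocyte markers went the other way in aged replicate 2, with 3259 CPM against 422 to 1500 in the other libraries. Fabp4 was at 1518 CPM and Ucp1 at 1422 CPM there. Not every adipocyte marker stood out, since Adipoq was at 94.3 CPM beside 87.1 CPM in young replicate 2. Lep was at 2.89 CPM, below the 3.59 CPM of young replicate 2. Neutrophil markers summed to 0.124 to 3.50 CPM and those of T and NK cells to 0.722 to 4.74 CPM, with Ly6g, Nkg7 and Klrb1c at 0 counts in every library. Markers of B and plasma cells summed to 1.34 to 5.37 CPM and of plasmacytoid dendritic cells to 11 to 53.6 CPM. Those of cardiac muscle summed to 80.0 to 259 CPM and of Schwann cells to 80.1 to 225 CPM. The cardiac muscle sum was highest in young replicate 1, where Myh6 was at 79.7 CPM, against 0.875 to 13.1 CPM in the other libraries. The part of these cells in the interferon-stimulated pattern was not tested.

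**Figure D4:**
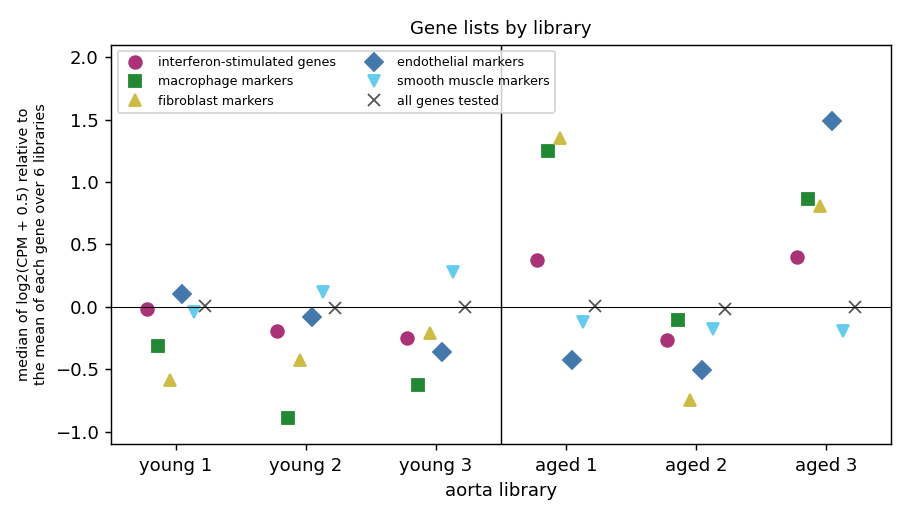
Median relative level (log2, y axis) of the interferon-stimulated genes and of the macrophage, fibroblast, endothelial and smooth muscle markers in each of the 6 libraries (x axis). The interferon-stimulated genes, the macrophage markers and the fibroblast markers are all highest in aged replicates 1 and 3, the fibroblast markers and the interferon-stimulated genes are lowest in aged replicate 2 (-0.75 and -0.27), and the endothelial markers are highest in aged replicate 3.

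The IFIT proteins bind foreign RNA and block its translation, and their genes lie side by side on chromosome 19 of mm10, from 34550694 to 34650009. In all values below, the 3 libraries of a group are given in the order of replicates 1, 2 and 3. Ifit1 was at 2.58, 2.82 and 1.84 CPM in young and 8.24, 2.92 and 4.88 CPM in aged libraries (log2 fold change 1.15, SE 0.42, adjusted p = 0.438). Ifit3 was at 16.3, 20.5 and 12.3 CPM in young and 51, 10.3 and 43.1 CPM in aged libraries (log2 fold change 1.09, SE 0.53, adjusted p = 0.529). In both genes aged replicates 1 and 3 were well above the young libraries, and aged replicate 2 lay just above them for Ifit1 and below them for Ifit3. Ifit3b, given because it was the gene called without aged replicate 2 and so chosen after its values were seen, was at 5.49, 6.64 and 4.34 CPM in young and 18.7, 2.28 and 18.2 CPM in aged libraries (log2 fold change 1.25, SE 0.68, adjusted p = 0.559). Its aged replicate 2 was the lowest of all 6 libraries. Ifit2 had the smallest difference of the 4, a log2 fold change of 0.20 (SE 0.26). Of the 50-base reads that Ifit3 could give, 51.2% also match Ifit3b, so these genes cannot be fully separated.

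ISG15 is a ubiquitin-like modifier, USP18 removes it and restrains the receptor, and HERC6 attaches it. Isg15, on chromosome 4 from 156199424 to 156200818, was at 2.70, 1.06 and 1.54 CPM in young and 7.43, 1.99 and 3.47 CPM in aged libraries (log2 fold change 1.27, SE 0.57, adjusted p = 0.501). Usp18 was at 2.19, 1.35 and 0.583 CPM in young and 3.97, 2.20 and 3.08 CPM in aged libraries (log2 fold change 1.16, SE 0.52, adjusted p = 0.502). All 3 aged libraries were above the young ones for Usp18, with 2.20 CPM in aged replicate 2 beside 2.19 CPM in young replicate 1, while for Isg15 aged replicate 2 lay within the young range. Herc6 differed least, with a log2 fold change of 0.16 (SE 0.21).

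Among the sensors of nucleic acid, RIG-I (gene Ddx58) and MDA5 (Ifih1) recognise viral RNA, LGP2 (Dhx58) modulates them, ZBP1 senses Z-form nucleic acid and PKR (Eif2ak2) halts translation. Dhx58, on chromosome 11 from 100694884 to 100704271, was at 1.82, 1.67 and 0.903 CPM in young and 3.04, 2.81 and 3.26 CPM in aged libraries (log2 fold change 1.05, SE 0.37, adjusted p = 0.422), with no overlap between the groups. Zbp1 was at 0.805, 0.977 and 0.728 CPM in young and 3.58, 0.663 and 2.16 CPM in aged libraries (log2 fold change 1.35, SE 0.62, adjusted p = 0.507), the largest log2 fold change of the 55, and aged replicate 2 was its lowest library. Eif2ak2, the most abundant sensor gene by FPKM, was at 12, 17.8 and 15.8 CPM in young and 15.4, 17.3 and 18.1 CPM in aged libraries (log2 fold change 0.16, SE 0.20, adjusted p = 0.800), with overlapping groups and -0.04 on the FPKM scale. Ifih1 had a log2 fold change of 0.84 (SE 0.39) and Ddx58 a log2 fold change of 0.05 (SE 0.22).

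OAS enzymes make oligoadenylates that switch on RNase L, and the OAS family here includes the OASL genes. Oasl2 was at 6.03, 8.65 and 4.25 CPM in young and 16.5, 6.25 and 18.7 CPM in aged libraries (log2 fold change 1.13, SE 0.45, adjusted p = 0.456). Oas1a was at 1.38, 0.201 and 0.758 CPM in young and 3.82, 1.01 and 1.06 CPM in aged libraries (log2 fold change 1.32, SE 0.81, adjusted p = 0.599), and aged replicate 1 alone exceeded the young range. Of the reads of Oas1a, 57.6% could also come from another gene, Oas1g. Oas3 was not tested for its low counts, which were 0, 0 and 2 in young and 8, 8 and 5 in aged libraries. The fold changes of the other OAS genes were 0.02 for Oas1b, 0.51 for Oas2 and 0.64 for Oasl1, with standard errors of at least 0.36. In C57BL/6 mice Oas1b is known to encode a truncated protein.

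The 4 transcription factor genes split. Irf7, which amplifies the type I response, was at 2.81, 2.44 and 2.42 CPM in young and 7.73, 2.44 and 4.42 CPM in aged libraries (log2 fold change 0.93, SE 0.43, adjusted p = 0.512). Its aged replicate 2 lay within the young range. Irf1 was at 22.4, 21.5 and 20.4 CPM in young and 29.2, 19.5 and 30.4 CPM in aged libraries (log2 fold change 0.30, SE 0.20, adjusted p = 0.632). Irf9 was at 15, 15.7 and 14 CPM in young and 20.2, 12.5 and 17.2 CPM in aged libraries (log2 fold change 0.16, SE 0.21, adjusted p = 0.810). Stat2 was at 13, 16.8 and 18.7 CPM in young and 12, 12.6 and 30.9 CPM in aged libraries (log2 fold change 0.19, SE 0.39, adjusted p = 0.875), which rests on aged replicate 3, since without it the log2 fold change was -0.39. Irf9 and Stat2 were lower in aged aorta on the FPKM scale, at -0.06 and -0.09, and Irf9 was at -0.0037 without aged replicate 1.

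Among the antiviral effectors, IFITM proteins block fusion of virus and host membranes, and they held the most abundant transcripts. Ifitm3, on chromosome 7 from 141009586 to 141010770, was at 85.8, 69.8 and 74.9 CPM in young and 250.3, 74 and 164 CPM in aged libraries (log2 fold change 1.08, SE 0.40, adjusted p = 0.437). Aged replicates 1 and 3 were the highest of the 6, and aged replicate 2 was inside the young range. Ifitm2 was at 168, 102 and 122 CPM in young and 250.1, 70.3 and 199 CPM in aged libraries (log2 fold change 0.41, SE 0.44, adjusted p = 0.758), and its aged replicate 2 was below every other library. Trim30a, a restraint on inflammatory signalling, was at 4.07, 5.66 and 5.04 CPM in young and 9.84, 5.09 and 12.3 CPM in aged libraries (log2 fold change 0.88, SE 0.35, adjusted p = 0.456). Tetherin, encoded by Bst2 and given here for its level, had a log2 fold change of 0.86 (SE 0.37). The other effectors, which are viperin (Rsad2), its neighbour Cmpk2, the exonuclease Isg20, the dNTP hydrolase Samhd1, Ifitm1 and the GTPases Mx1 and Mx2, lay between 0.33 for Mx2 and 1.03 for Mx1, which had a standard error of 1.27 and at most 0.531 CPM in any library. Mx1 is known to be defective in C57BL/6 mice. Of the reads of Ifitm2, 48.5% could also match another gene.

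**Figure D5:**
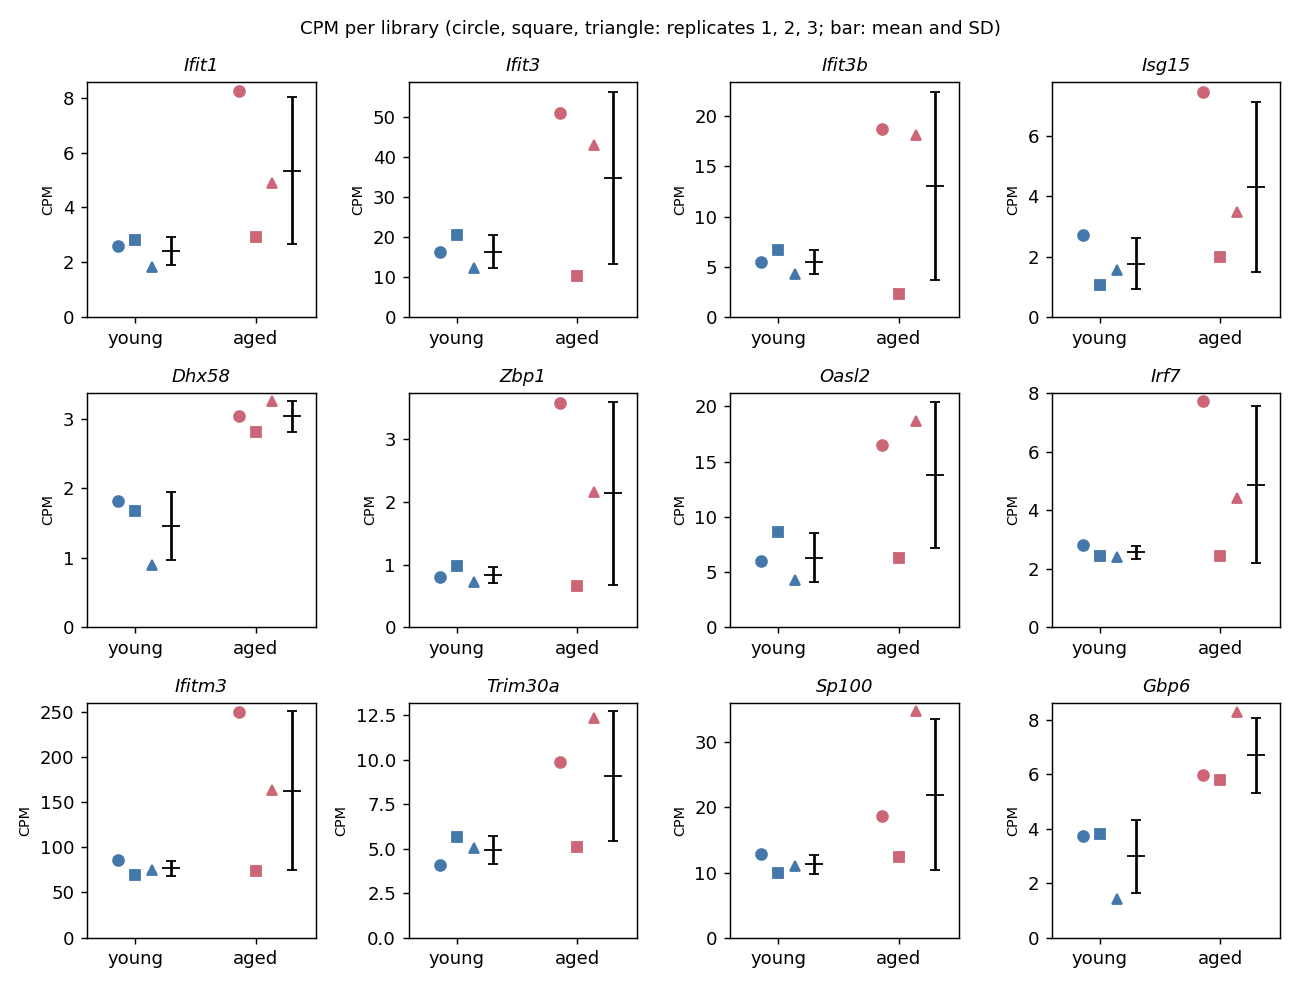
Level in CPM (y axis, from 0) of single interferon-stimulated genes in the 3 young and 3 aged libraries, with each point 1 library and the bar the group mean and SD. The 12 genes shown are a selection that leaves out named genes without the pattern, such as Oas1a, Eif2ak2, Stat2 and Ifi27. Aged replicates 1 and 3 lie above the young libraries in all 12 panels, but in 35 of the 55 genes tested. Aged replicate 2 lies within the young range in 6 panels, below it in 3 and above it in 3. Ifitm3 is of the first kind, with 74 CPM in aged replicate 2 beside 250.3 and 163.6.

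PARP9 and DTX3L form a complex that marks histones, and PARP14 is a mono-ADP-ribosyltransferase. Their genes lie together on chromosome 16 from 35832874 to 35972605 and differed little. Parp9 was at 20.8, 22.8 and 19.3 CPM in young and 24.8, 20.0 and 25.4 CPM in aged libraries (log2 fold change 0.16, SE 0.17, adjusted p = 0.754), and Parp14 at 18.3, 17.6 and 18.6 CPM in young and 22.3, 12 and 24.6 CPM in aged libraries (log2 fold change 0.11, SE 0.27, adjusted p = 0.903). Dtx3l was lower by a log2 fold change of -0.05. On the FPKM scale Parp9 and Parp14 were at -0.05 and -0.10.

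Other induced genes included SP100, a nuclear body protein, EPSTI1 and IFI27. Sp100 was at 12.8, 9.86 and 11.1 CPM in young and 18.6, 12.4 and 34.8 CPM in aged libraries (log2 fold change 0.96, SE 0.37, adjusted p = 0.446), of which aged replicate 3 was the highest. Epsti1 was at 1.18, 0.805 and 1.08 CPM in young and 2.29, 1.38 and 1.88 CPM in aged libraries (log2 fold change 0.85, SE 0.40, adjusted p = 0.515), with every aged library above the young ones. Ifi27, the most abundant of this group, was at 150.0, 166 and 97.5 CPM in young and 164, 197 and 107 CPM in aged libraries (log2 fold change 0.18, SE 0.29, adjusted p = 0.844), and aged replicate 2 was its highest library, the only one of the 55 for which this was so. Its sign flipped to -0.01 without young replicate 3, to -0.03 without aged replicate 2 and to -0.05 on the FPKM scale. Rtp4 had a log2 fold change of 0.79 (SE 0.42), and Xaf1, Ifi35 and Ifi44 lay between -0.05 and 0.38.

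Guanylate-binding proteins (GBP) are large GTPases that coat microbes and lyse vacuoles, and their genes form a cluster on chromosome 3 from 142493978 to 142638008 and another on chromosome 5 from 105077630 to 105293698. Gbp6 was at 3.74, 3.79 and 1.43 CPM in young and 5.99, 5.80 and 8.28 CPM in aged libraries (log2 fold change 1.16, SE 0.41, adjusted p = 0.421), with no overlap between the groups. Since 70.7% of its reads could also match another annotated gene, its count is uncertain. Gbp3 was at 11.5, 12.4 and 7.20 CPM in young and 21, 9.12 and 16.8 CPM in aged libraries (log2 fold change 0.59, SE 0.35, adjusted p = 0.587). Gbp2, the most abundant GBP, was at 38, 28.3 and 22.8 CPM in young and 40.8, 20.8 and 39.7 CPM in aged libraries (log2 fold change 0.18, SE 0.31, adjusted p = 0.847) and -0.06 on the FPKM scale. Gbp4 and Gbp9, whose annotated spans overlap on the same strand and which are named after their values were seen, were high in aged replicate 3 alone. They were at 23.1 and 19.4 CPM there, against 5.21 to 12.2 and 5.06 to 8.52 CPM in the other 5 libraries. Gbp5 and Gbp7 had log2 fold changes of 0.50 and 0.50.

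The IRG GTPases, which disrupt the vacuoles of parasites, differed least beside the PARP group, with a median of 0.17 and a range of 0.15 to 0.49. Ifi47 was at 3.49, 1.81 and 3.32 CPM in young and 4.90, 3.31 and 3.89 CPM in aged libraries (log2 fold change 0.49, SE 0.35, adjusted p = 0.642). Igtp, on chromosome 11 from 58199556 to 58207591, was at 8.55, 6.67 and 8.36 CPM in young and 9.99, 7.47 and 10.1 CPM in aged libraries (log2 fold change 0.22, SE 0.22, adjusted p = 0.743). On the FPKM scale Igtp was at -0.0018. Of the reads of Tgtp1 and Tgtp2, 81.2% and 86.6% could match another gene, chiefly each other, and their values were not separated further.

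Seen by role, the median log2 fold change was 1.16 for the ISG15 system, 1.12 for the IFIT family, 0.84 for the sensors, 0.64 for the OAS family, 0.59 for the antiviral effectors, 0.50 for the GBP genes, 0.38 for the other induced genes, 0.25 for the transcription factors, 0.17 for the IRG genes and 0.11 for the PARP and DTX3L genes. The ranges of the groups overlapped, and no difference between them was tested. Neighbouring genes had like values in some clusters and not in others. The log2 fold changes ran from -0.05 to 0.16 around Parp9, from 0.40 to 0.59 for Rsad2 and Cmpk2, and from 0.15 to 0.49 for the 4 clustered IRG genes. On chromosome 19 the IFIT genes ran from 0.20 to 1.25, and the 3 genes around Gbp6 on chromosome 5 from 0.21 to 1.16. The 22 tested genes with an ISRE-like match had a median of 0.55, and the 18 tested genes with a promoter but no match had 0.38, again with overlapping ranges.

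Between genes, levels were compared as FPKM, which divides by gene length. Ifitm2 led with a mean of 208 FPKM over the 6 libraries, followed by Ifitm3 with 156 and Ifi27 with 90.9. In young aorta Ifitm2 was at 194 ± 46.5 FPKM (SD, n = 3) and Ifitm3 at 111 ± 9.79 FPKM (SD, n = 3). In aged aorta the FPKM of Ifitm2 was 221 ± 119 (SD, n = 3) and that of Ifitm3 201 ± 111 (SD, n = 3), so there the first and second did not differ beyond their spread. The top 3 took 75.6% of the summed FPKM of the 56. Bst2 followed at 23.8 FPKM, Ifi35 at 13.9, Ifit3 at 12.9 and Gbp2 at 11.4. In aged aorta the ranges of mean ± SD of the last 3 of these overlapped. In all, 7 genes had a mean of at least 10 FPKM, 38 at least 1 FPKM and 18 under 1 FPKM, with a median of 1.53 FPKM.

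The other genes of the interferon pathway, 55 ligands, receptors, transducers, adaptors and negative regulators, had fold changes on both sides of 0. Of the 33 that were tested 0 were called, 17 had a log2 fold change above 0 and 16 below, and their median was 0.04. Interferon ligands were at or near 0. Of 21 ligand genes, 19 had 0 counts in every library, Ifnb1 and Ifng among them, which allows at most 0.0619 to 0.106 CPM per library (3 counts, counting error only). Ifne had 8 counts in young replicate 1 alone, and Ifnz had 1 count in young replicate 2 and 2 in aged replicate 3.

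Receptor subunits went both ways. Ifnar2 was at 33.7, 32.3 and 26.7 CPM in young and 52.6, 40.5 and 42.3 CPM in aged libraries (log2 fold change 0.55, SE 0.17, adjusted p = 0.390). Every aged library was above every young library. Ifnar1 was at 39.8, 36.6 and 38.1 CPM in young and 27.8, 31.2 and 25.8 CPM in aged libraries (log2 fold change -0.43, SE 0.14, adjusted p = 0.411), with every aged library below the young ones. Ifngr2, a subunit of the type II receptor, was at 72.2, 85.2 and 87.3 CPM in young and 78.6, 37.5 and 58.9 CPM in aged libraries (log2 fold change -0.48, SE 0.27, adjusted p = 0.563), with aged replicate 2 lowest. Its partner Ifngr1, named after its values were seen, was at 27, 26.4 and 24.6 CPM in young and 31.6, 23.1 and 83.7 CPM in aged libraries (log2 fold change 0.83, SE 0.45, adjusted p = 0.558), and aged replicate 3 stood far above the rest. The kinase Tyk2 was at 38.6, 41.8 and 52.3 CPM in young and 30.5, 28.5 and 36 CPM in aged libraries (log2 fold change -0.48, SE 0.18, adjusted p = 0.438), again without overlap. Jak1, the other kinase, had a log2 fold change of 0.19 (SE 0.14).

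Tlr7, an endosomal sensor of single-stranded RNA found in macrophages, was at 0.949, 0.661 and 0.845 CPM in young and 2.14, 0.981 and 2.02 CPM in aged libraries (log2 fold change 1.06, SE 0.46, adjusted p = 0.490), with every aged library above the young ones. Irf3, which drives the first wave of interferon after sensing, had a log2 fold change of -0.15 (SE 0.16). Of the negative regulators, Pias4, an inhibitor of STAT signalling, was at 17.3, 19.8 and 17.3 CPM in young and 13.8, 12.2 and 9.98 CPM in aged libraries (log2 fold change -0.59, SE 0.19, adjusted p = 0.396), with every aged library below the young ones, and the phosphatase gene Ptpn2 had a log2 fold change of 0.06 (SE 0.22). Of the 33 genes, 4 (12.1%) had an unadjusted p below 0.05, near the 10.4% of all genes tested, with Ifnar2 higher and Ifnar1, Tyk2 and Pias4 lower in aged aorta.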

How the data were processed

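RNA of 6 aortas was sequenced single-ended (SMARTER kit, strand not stated). The authors deposited whole-number counts of reads per gene and FPKM, which the authors scaled by gene length and library total. Their notes name mm10, and the aligner and counter are not given in the sources used here. Coordinates are from GENCODE M21 (GRCm38).

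Counts were fitted in R 4.3.3 by the quasi-likelihood test of edgeR 4.0.16, without covariates, after TMM scaling and its filterByExpr step (count minimum 10, total minimum 15), with Benjamini-Hochberg adjustment over all genes tested and a threshold of 0.05. The counting error of a gene listed at 0 was bounded at 3 counts. Each library was left out in turn. Other settings were scaling by RLE, a filter of 10 counts in every library or none, a replicate block, DESeq2 1.42.0, and limma 3.58.1 on log2(FPKM + 1) and log2(FPKM + 0.1). The fit was tested on simulated counts. With 1 library per mouse, p values measure the spread between these mice.

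Members and lists were chosen with earlier results of these data known. Named are, per role group, the 2 tested members with the smallest p and the one with the highest mean FPKM, the 4 transcription factors, and from the pathway list, per group, the gene with the smallest p and that with the highest mean FPKM, with Ifnb1 and Ifng. A further gene of that list is not reported here. Other members are given to account for them. Shared reads were counted as 50-base stretches of GENCODE transcripts found in another gene. Promoters are from RefSeq (GRCm38.p6), and 15 members had no entry used here.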

Additional observations from a re-analysis of the deposited data

How the results depend on the processing

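No interferon-stimulated gene was called under any alternative except without aged replicate 2, and leaving out 1 library gave 0 to 1 called genes of the list. Among all genes the count of calls was 0 to 110 with 1 library left out (110 without aged replicate 2) and 338 with DESeq2. The count of listed genes with all aged above all young libraries was 5 to 35 with 1 library left out (35 without aged replicate 2, beside 17.5% of all genes, 15 without young replicate 1, beside 15.8%, and 8 without young replicate 2, young replicate 3 or aged replicate 1, beside 11.5%, 10.9% and 12.2%). It was 3 on FPKM with either pseudocount. The share of all genes was not counted on that scale, so the 3 cannot be set against a background. The median log2 fold change of the 26 named genes was 0.87. Leaving out 1 library gave 0.42 (aged replicate 1) to 1.06 (aged replicate 2), and log2(FPKM + 1) gave 0.26. The median of the tested members was 0.29 to 0.64 with 1 library left out.

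Signs turned for single genes. With 1 library left out, Ifi27 ranged from -0.027 (without aged replicate 2) to 0.39 and was -0.013 without young replicate 3, Irf9 ranged from -0.0037 (without aged replicate 1) to 0.33, Stat2 from -0.39 to 0.43 and Parp14 from -0.084 to 0.37 (lowest without aged replicate 3 for both). On log2(FPKM + 1) and log2(FPKM + 0.1), the log2 fold changes were -0.040 and -0.048 for Eif2ak2, -0.057 and -0.082 for Irf9, -0.092 and -0.15 for Stat2, -0.054 and -0.066 for Parp9, -0.098 and -0.16 for Parp14, -0.051 and -0.052 for Ifi27, -0.060 and -0.068 for Gbp2, and -0.0018 and -0.0027 for Igtp. Mitochondrial counts were a larger share of aged libraries and enter the FPKM total. Their part in this shift was not tested. The other 316 values of the 26 named genes kept their sign and their side of the threshold.

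With the replicate number as a block, 0 listed genes were called, 9 (16.4%) had an unadjusted p below 0.05, beside 10.7% of all genes, and the median was 0.41. Deviations of same-numbered libraries correlated at 0.079, 0.134 and 0.128. Each library correlated best with its own number, a hint from the data, but the numbers were not taken as pairs. Depth set a floor of 0.0619 to 0.106 CPM per library (3 counts), and Oas3 had too few counts to be tested.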
